A study of Mus musculus with 10 samples.

Results

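Tdg, Snrpf, D2hgdh, Odc1 and Amd1 are protein-coding genes, and Gm9855, Gm13092, Gm18666, Gm7993 and Amd2 are whole or partial copies of them elsewhere in the mouse genome. Over the aligned bases, the copies were 95.3% (Gm7993) to 99.6% (Amd2) identical to the genes they copy. These 10 genes, out of 54532 in the deposited table, were examined as 5 pairs of a parent and a copy (Tdg with Gm9855, Snrpf with Gm13092, D2hgdh with Gm18666, Odc1 with Gm7993, Amd1 with Amd2). The pairs were chosen from how the genes differed between the DUSP6 KO and WT spleens measured here, so the levels, sums and shares of the 10 genes are given as a description, with no test. The values that led to the choice were the higher levels of the 5 copies in DUSP6 KO spleens and, for some pairs, a lower level of the parent.

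RNA-seq of whole spleens compared 5 mice lacking the phosphatase DUSP6 with 5 WT mice, to ask how gene expression differs without DUSP6 in experimental arthritis. The DUSP6 KO mice carried the Dusp6tm1Jmol allele in all cells and the WT mice were C57BL/6J, both from the same supplier. The sources used here do not say whether the 2 groups were littermates, and the genotype field of the labels reads "DUSP6 Knockdown" where the other fields and the methods say KO. All 10 mice, male or female and 8 to 12 weeks old by the study's methods, had received 100 μL of arthritogenic serum from KRN x NOD F1 mice intraperitoneally on days 0 and 2. Spleens were taken on day 9, at the peak of arthritis, and there was no group without serum. Spleens are named below by group and by the animal number in their labels.

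When the mRNA of a gene is reverse transcribed and inserted elsewhere in the genome, the insertion is an intronless copy called a processed pseudogene, or a retrogene if it still encodes a protein. An unprocessed pseudogene comes instead from duplication of the DNA and keeps introns. Because a copy and its parent share long stretches of sequence, a short read from a shared stretch can be placed on either of them, so a level measured for one member of a pair is not independent of the other.

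The annotation (GENCODE M21, on the GRCm38 build) did not call all 5 copies processed pseudogenes. Gm9855 (chr10:42054113-42055306, minus strand), Gm13092 (chr4:150315177-150315436, minus strand, lying within Rere, which is on the plus strand) and Gm7993 (chr5:95974240-95975623, plus strand) were processed pseudogenes of 1 exon each. Gm18666 (chr1:93906244-93916768, plus strand) was an unprocessed pseudogene with 6 exons. Amd2 (chr10:35708675-35711892, minus strand) was annotated as a protein-coding gene of 1 exon. Of the 10 genes, 5 lay on chromosome 10, which also holds Dusp6. Snrpf was 5.67 Mb from Dusp6, Tdg 16.6 Mb, Gm9855 57.2 Mb, Amd1 59.0 Mb and Amd2 63.6 Mb.

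The parents lay at chr10:82629828-82650799 (Tdg, plus strand), chr10:93583029-93589706 (Snrpf, minus strand), chr1:93824909-93852348 (D2hgdh, plus strand), chr12:17544794-17551505 (Odc1, plus strand) and chr10:40287458-40302186 (Amd1, minus strand). D2hgdh and Gm18666 were therefore neighbours on the same strand of chromosome 1. Amd1 and Amd2 lay on the same strand of chromosome 10 in the same region (59.0 and 63.6 Mb from Dusp6). Tdg and Gm9855 were farther apart on chromosome 10 (16.6 and 57.2 Mb from Dusp6). Snrpf and Gm13092 were on different chromosomes, as were Odc1 and Gm7993.

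The stretches below, each 60 bases of transcript in the 5′ to 3′ direction, are shown because they hold the bases that tell parent and copy apart. Capitals mark the positions at which the 2 sequences differ, and each stretch lies in the coding sequence of the parent. They come from the GENCODE M21 transcripts and the coordinates are on GRCm38. Tdg (chr10:82648069-82648627, across an intron) and Gm9855 (chr10:42054206-42054265) differed at 4 of these bases.
Tdg: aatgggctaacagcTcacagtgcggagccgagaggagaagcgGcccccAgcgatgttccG
Gm9855: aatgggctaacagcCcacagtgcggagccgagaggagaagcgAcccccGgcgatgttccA
Snrpf (chr10:93588064-93588123) and Gm13092 (chr4:150315375-150315434) differed at 3 bases of this stretch, which were all their differences.
Snrpf: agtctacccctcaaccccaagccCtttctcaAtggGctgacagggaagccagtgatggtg
Gm13092: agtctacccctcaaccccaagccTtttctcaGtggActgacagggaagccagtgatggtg
D2hgdh (chr1:93829828-93829887) and Gm18666 (chr1:93906882-93906941) differed at 3 bases here.
D2hgdh: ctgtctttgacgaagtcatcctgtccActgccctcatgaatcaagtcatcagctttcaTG
Gm18666: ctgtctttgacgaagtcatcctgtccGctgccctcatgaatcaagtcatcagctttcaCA
Odc1 (chr12:17549550-17549690, across an intron) and Gm7993 (chr5:95975117-95975176), the most diverged pair, differed at 7 bases here.
Odc1: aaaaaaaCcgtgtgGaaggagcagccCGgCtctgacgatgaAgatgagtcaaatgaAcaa
Gm7993: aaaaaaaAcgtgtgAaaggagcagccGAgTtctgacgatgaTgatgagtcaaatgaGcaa
Amd1 (chr10:40290186-40290245) and Amd2 (chr10:35710764-35710823) differed at 1 base here, their only difference within the coding sequence of Amd1.
Amd1: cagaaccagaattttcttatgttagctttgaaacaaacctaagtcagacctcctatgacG
Amd2: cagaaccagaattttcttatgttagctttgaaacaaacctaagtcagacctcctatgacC

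Over its whole length, Gm9855 matched 1194 bases of the Tdg transcript with 9 mismatches (99.2% identity). Counted from 1 at the 5′ end of the parent's transcript, with the parent's base first, these were A327C, A1084G, G1106A, G1108C, T1222C, T1285C, G1313A, A1319G and G1330A. Gm9855 covered most of the coding sequence of Tdg and little else, so the long 3′ end of the Tdg transcript has no counterpart in it. Gm13092 matched 258 bases of Snrpf (98.8% identity) with the mismatches C192T, A200G and G204A. The match ran from position 169 to 426 of the Snrpf transcript, whose coding sequence was annotated from 166 to 423. Gm18666 matched 958 bases of D2hgdh with 6 mismatches (99.4% identity). The match ran from position 664 of that transcript to 1934, the end of its annotated coding sequence, and lacked an inner part between positions 1061 and 1368.

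Amd2 matched 3202 aligned positions of Amd1 with 10 mismatches and 4 gap bases (99.6% identity), nearly the whole of both transcripts, and G1124C was the one mismatch within the coding sequence. Gm7993 matched 1401 aligned positions of Odc1, exactly the coding sequence, with 31 mismatches and 35 gap bases (95.3% identity).

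**Figure D1:**
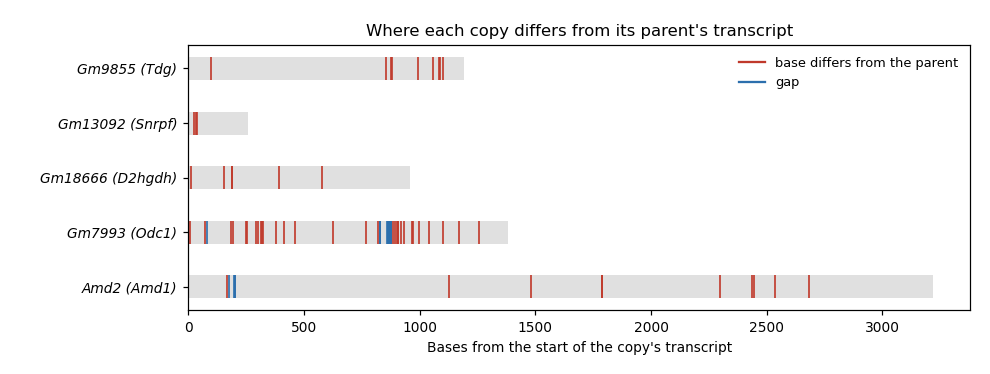
Each grey bar is the transcript of a copy, drawn to scale in bases from its start, with the parent in parentheses. Red lines mark bases that differ from the parent and blue lines mark gap bases, of which Gm7993 had 31 and 35 and Gm13092 had 3 and none.

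These differences bear on which reads can be told apart. Of all 150-base windows of Gm9855, 58.1% occurred unchanged in the annotated transcripts of Tdg. The share was 65.8% for Gm13092 in Snrpf, 39.4% for Gm18666 in D2hgdh and 61.6% for Amd2 in Amd1. For Gm7993 in Odc1 it was 1.46%, so nearly every 150-base window of this copy held a difference from its parent. With 50-base windows the shares were 76.5% for Gm9855, 82.0% for Gm13092, 78.2% for Gm18666, 85.7% for Amd2 and 32.9% for Gm7993. These shares count the paired parent alone. Windows of 150 bases found in any other gene made up 62.0% of Gm9855, 62.9% of Gm18666 and 3.81% of Gm7993. With 50 bases these were 85.3%, 89.0% and 49.6%. For Gm13092 and Amd2 the shares were the same as with the parent alone. How reads that match several places were handled is not given in the sources used here.

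The depth of the 10 libraries, as whole reads recovered from the deposited FPKM values (fragments per kilobase of gene length, scaled to library size), was 14990474 to 19822673. The deposited values are normalised with a scale that differed from these totals by factors of 0.949 to 1.12, so FPKM times gene length is called RPM (reads scaled to library size) below. Dusp6, the deleted gene, measured 0.308 to 0.624 FPKM in DUSP6 KO and 16.6 to 24.0 FPKM in WT spleens (log2 difference -5.19, limma adjusted p = 1.33e-07), and these ranges did not overlap. Of 21296 genes averaging 0.1 FPKM or more, limma called 15 at an adjusted p of 0.05 or less (0.0704%), 8 of them higher (0.0376%) and 7 lower (0.0329%) in DUSP6 KO, and 5.66% had an unadjusted p under 0.05. Leaving out KO 21 alone raised the calls to 21 higher and 13 lower, and leaving out WT 83 left 4 lower. WT 67 stood apart in exocrine pancreas genes (summed level of 6 markers 6974 FPKM, against 9.5 to 103 in the other 9 spleens). WT 77 stood apart in neutrophil progenitor genes (4 markers, 409.9 FPKM, against 44.8 to 144 in the others). KO 73 was lowest in B-cell (387 FPKM) and T-cell genes (42.2 FPKM) and highest in red pulp macrophage genes (788 FPKM), with 4 markers each. The part of these cells in the member levels was not tested, and leaving out one of these spleens is reported where it changed a direction.

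All 10 genes passed the filter. All 5 copies had a higher mean in DUSP6 KO spleens, and for 4 of them every DUSP6 KO spleen was above every WT spleen, where 0.549% of all genes tested had groups apart in this direction and 1.11% in either. All 5 parents had a lower mean log2 level in DUSP6 KO, Odc1 and Amd1 by only 0.05 and 0.03, which changed sign without KO 21, KO 03 or WT 77, but only Tdg had groups that did not overlap in that direction, as did 0.563% of all genes. Since this contrast chose the genes, nothing is read from these counts. Differences below are on the log2(FPKM + 0.1) scale. The ± value beside a member's log2 difference is its SE from the limma fit over all genes, and no test is drawn from it.

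**Figure D2:**
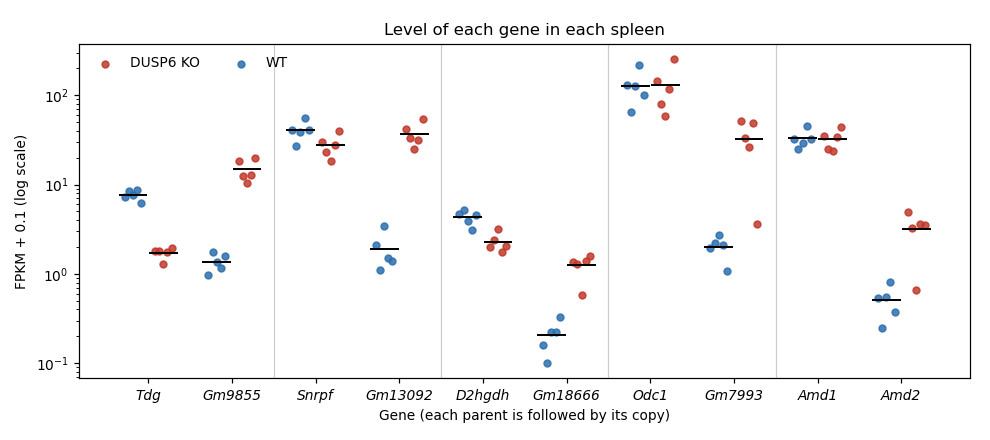
Level of each gene in each spleen, as FPKM + 0.1 on a log axis, with blue points for WT, red points for DUSP6 KO (5 spleens each) and a black line at the mean of the group. Red points lie above blue points for Gm9855, Gm13092, Gm18666 and Gm7993, below them for Tdg, and 1 low red point each stands out for Gm18666 (KO 21), Gm7993 (KO 73) and Amd2 (KO 21).

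Tdg encodes thymine DNA glycosylase, which removes thymine from G·T mismatches and takes part in active DNA demethylation. Tdg measured 1.71, 1.72, 1.21, 1.66 and 1.85 FPKM in KO 01, 03, 21, 26 and 73. In WT 65, 67, 73, 77 and 83 it measured 7.22, 8.32, 7.52, 8.67 and 6.17 FPKM. The highest DUSP6 KO spleen was thus well below the lowest WT spleen, with means of 1.63 ± 0.25 and 7.58 ± 0.99 FPKM (SD, n = 5 each), a log2 difference of -2.16 ± 0.14 (SE).

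Its copy Gm9855 moved the other way. It measured 18.3, 12.4, 10.2, 12.7 and 19.9 FPKM in KO 01, 03, 21, 26 and 73, and 0.882, 1.67, 1.26, 1.06 and 1.5 FPKM in WT 65, 67, 73, 77 and 83. No DUSP6 KO spleen was near the WT range, and the means of 14.7 ± 4.2 and 1.27 ± 0.32 FPKM differed by 3.42 ± 0.22 on the log2 scale. Per kilobase, Gm9855 was therefore 7.24 to 10.7 times the level of Tdg in the DUSP6 KO spleens and 0.122 to 0.242 times its level in the WT spleens.

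The summed reads of the pair were also fewer in DUSP6 KO (log2 difference -0.71), although adding FPKM without gene length, which weights the short copy more, turned this to 0.85. The sum of Tdg and Gm9855 was 31.0, 24.1, 18.7, 24.1 and 33.7 RPM in KO 01, 03, 21, 26 and 73, and 39.8, 46.7, 41.9, 47.9 and 34.9 in WT 65, 67, 73, 77 and 83. The 2 ranges did not overlap, although KO 73 and WT 83 were close, and the means were 26.3 ± 6.0 and 42.3 ± 5.3. The gain on Gm9855 was 50.2% of the loss on Tdg. This sets reads on a copy of 1194 bases against reads over the 5374 bases counted for Tdg. It is therefore not a share of reads moved from Tdg to Gm9855. The share of the pair's reads that was placed on Gm9855 was 61.7% to 70.4% in DUSP6 KO and 2.64% to 5.11% in WT spleens.

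**Figure D3:**
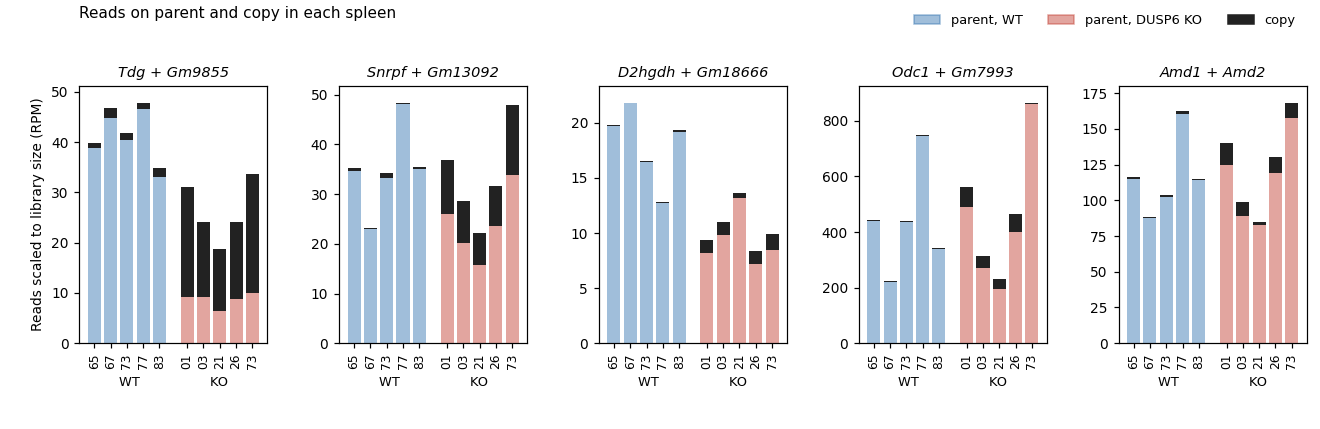
Stacked bars give, for each spleen (animal numbers under the bars, WT left, DUSP6 KO right), the RPM on the parent (coloured) and on the copy (black), with an axis from 0 for each pair. The whole bars are lower in DUSP6 KO for Tdg with Gm9855 and reach similar heights in both groups for Snrpf with Gm13092, Odc1 with Gm7993 and Amd1 with Amd2.

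Snrpf encodes SmF, a subunit of the Sm ring that surrounds the spliceosomal snRNAs. Snrpf measured 30.1, 23.3, 18.2, 27.3 and 39.2 FPKM in KO 01, 03, 21, 26 and 73. In the WT spleens, in the order 65, 67, 73, 77 and 83, it measured 40.3, 26.7, 38.7, 55.8 and 40.8 FPKM. The groups overlapped, with WT 67 below 3 of the DUSP6 KO spleens, and the means were 27.6 ± 7.9 and 40.5 ± 10.3 FPKM (log2 difference -0.56 ± 0.22).

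Gm13092 had the greatest log2 difference among the 10 genes with all spleens included, whereas without KO 73 it was 4.20 and that of Gm7993 was 4.32. It measured 41.9, 32.9, 24.9, 31.3 and 54.6 FPKM in KO 01, 03, 21, 26 and 73, against 2.02, 1.01, 3.35, 1.39 and 1.29 FPKM in WT 65, 67, 73, 77 and 83. The groups were far apart (37.1 ± 11.5 and 1.81 ± 0.94 FPKM, log2 difference 4.35 ± 0.31), and the WT values rested on 5 to 15 reads per library. Per kilobase, Gm13092 exceeded Snrpf in all 5 DUSP6 KO spleens, by 1.15 to 1.41 times.

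For this pair the summed reads overlapped widely. Snrpf and Gm13092 together gave 36.8, 28.6, 22.2, 31.7 and 48.0 RPM in KO 01, 03, 21, 26 and 73, and 35.2, 23.3, 34.2, 48.4 and 35.5 in WT 65, 67, 73, 77 and 83. The means of 33.5 ± 9.7 and 35.3 ± 8.9 differed by less than the spread within either group, and their log2 difference of -0.09 changed sign without KO 21 (0.049) or WT 77 (0.036). The gain on Gm13092 was 83.2% of the loss on Snrpf. This percentage is uncertain, because the Snrpf loss lay between overlapping groups (23.8 ± 6.8 RPM in DUSP6 KO and 34.8 ± 8.9 in WT). It also sets reads on a copy that matches 258 bases against reads over the 861 bases of Snrpf. It is therefore not a share of reads moved from Snrpf to Gm13092. The share of the pair's reads on Gm13092 stayed in a narrow band in DUSP6 KO, from 25.7% to 29.9%, and was 0.745% to 2.54% in WT.

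D2hgdh encodes D-2-hydroxyglutarate dehydrogenase, the mitochondrial enzyme that oxidises D-2-hydroxyglutarate to 2-oxoglutarate. D2hgdh measured 1.92, 2.30, 3.09, 1.68 and 1.98 FPKM in KO 01, 03, 21, 26 and 73. In WT 65, 67, 73, 77 and 83 it measured 4.60, 5.10, 3.85, 2.96 and 4.47 FPKM. The groups overlapped through a single spleen on each side, KO 21 being above WT 77, and the means were 2.19 ± 0.55 and 4.20 ± 0.82 FPKM (log2 difference -0.91 ± 0.19).

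Gm18666 was the weakest copy and rested on few reads. It measured 1.25, 1.20, 0.483, 1.29 and 1.5 FPKM in KO 01, 03, 21, 26 and 73, from 26, 19, 9, 23 and 21 reads. In the WT spleens, in the order 65, 67, 73, 77 and 83, it measured 0.061, 0, 0.121, 0.126 and 0.233 FPKM, from 1, 0, 2, 2 and 4 reads. The groups did not overlap, but KO 21 was well below the other 4 DUSP6 KO spleens. That spleen had both the lowest Gm18666 and the highest D2hgdh of its group.

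The gain on Gm18666 was 11.5% of the loss on D2hgdh, whose groups overlapped. This sets reads on a copy of 958 bases against reads over the 4281 bases counted for D2hgdh. Such lengths differ between pairs, so the percentages of different pairs are not ranked. The sum of the pair was 9.42, 11.0, 13.7, 8.41 and 9.90 RPM in KO 01, 03, 21, 26 and 73, and 19.8, 21.8, 16.6, 12.8 and 19.4 in WT 65, 67, 73, 77 and 83. As for D2hgdh alone, KO 21 and WT 77 overlapped while the remaining spleens were apart (means 10.5 ± 2.0 and 18.1 ± 3.5). The share on Gm18666 was 3.38% in KO 21, 10.4% to 14.6% in the other 4 DUSP6 KO spleens, and 0% to 1.15% in WT.

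Odc1 encodes ornithine decarboxylase, the first enzyme of polyamine synthesis. Odc1 measured 144, 79.1, 57.7, 117 and 253 FPKM in KO 01, 03, 21, 26 and 73. In WT 65, 67, 73, 77 and 83 it measured 129, 64.7, 128, 219.5 and 100.1 FPKM. The highest DUSP6 KO spleen was 4.39 times the lowest, the groups overlapped widely, and the means were 130.2 ± 76.3 and 128.2 ± 57.4 FPKM.

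Gm7993 split the DUSP6 KO group. It measured 51.2, 33.1, 26.1 and 48.4 FPKM in KO 01, 03, 21 and 26, but 3.50 FPKM in KO 73. In the WT spleens, in the order 65, 67, 73, 77 and 83, it measured 1.86, 2.12, 2.60, 2.00 and 0.968 FPKM, so KO 73 lay just above the highest WT spleen. In reads, KO 73 had 71 on Gm7993 beside 12614 on Odc1, while the other 4 DUSP6 KO spleens had 701 to 1536 on Gm7993. The share of the pair's reads on Gm7993 was 0.560% in KO 73, within the WT range of 0.369% to 1.31%, and 12.6% to 15.5% in KO 01, 03, 21 and 26.

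KO 73 also had the highest Odc1 of all 10 spleens. The sum of Odc1 and Gm7993 overlapped between the groups, from 232 to 866 RPM in DUSP6 KO and from 223 to 750 in WT (means 488 ± 247 and 439 ± 195). Leaving out KO 73 moved the log2 difference of this sum from 0.12 to -0.13 and leaving out WT 67 moved it to -0.10, so it had no stable direction.

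Amd1 encodes S-adenosylmethionine decarboxylase, which supplies the aminopropyl groups for spermidine and spermine. Amd1 measured 35.3, 25.1, 23.4, 33.7 and 44.4 FPKM in KO 01, 03, 21, 26 and 73. In WT 65, 67, 73, 77 and 83 it measured 32.5, 24.8, 28.8, 45.3 and 32.2 FPKM. The groups covered the same range, with means of 32.4 ± 8.5 and 32.7 ± 7.7 FPKM.

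Amd2, annotated as a coding gene for the same enzyme, measured 4.80, 3.15, 0.559, 3.51 and 3.44 FPKM in KO 01, 03, 21, 26 and 73. In the WT spleens, in the order 65, 67, 73, 77 and 83, it measured 0.436, 0.146, 0.450, 0.71 and 0.277 FPKM. It was the one copy whose groups overlapped, because KO 21 was below WT 77, and the other 4 DUSP6 KO spleens were all above the WT spleens. The means were 3.09 ± 1.55 and 0.404 ± 0.212 FPKM (log2 difference 2.51 ± 0.53).

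Amd2 added little to the reads of its pair. The sum of Amd1 and Amd2 was 84.8 to 168 RPM in DUSP6 KO and 88.4 to 163 in WT (means 125 ± 33 and 117 ± 28), and these ranges nearly coincided. The log2 difference of 0.08 changed to -0.043 without KO 73 and to -0.018 without WT 67. The share on Amd2 was 2.12% in KO 21 and 6.56% to 11.0% in the other 4 DUSP6 KO spleens, against 0.533% to 1.41% in WT, so as a share KO 21 was still above every WT spleen.

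**Figure D4:**
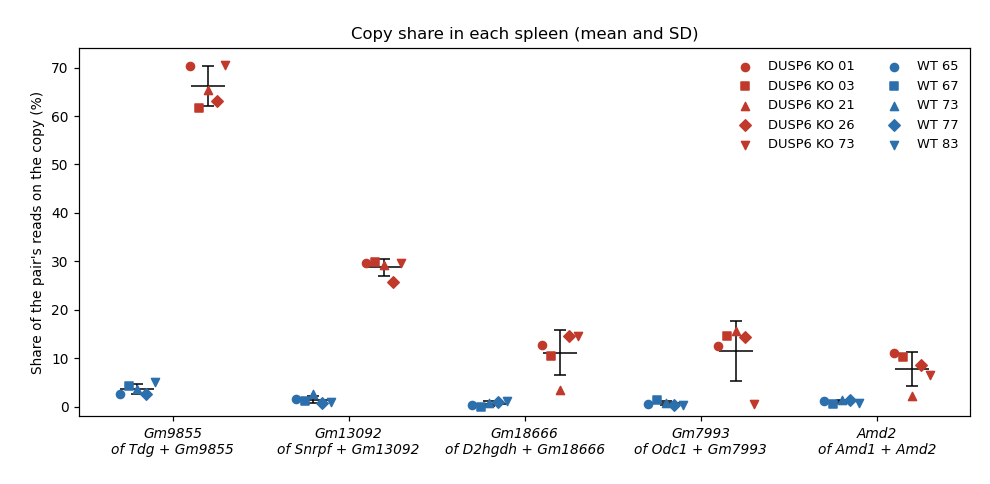
Percent of the reads of each pair that were placed on the copy, with 1 point for each spleen and the mean and SD of each group (n = 5) in black. The DUSP6 KO points are tight for Gm9855 and Gm13092, whereas KO 21 is low for Gm18666 (3.38%) and Amd2 (2.12%) and KO 73 is low for Gm7993 (0.560%).

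The 3 low values fell on different spleens for different pairs. KO 21 was low for Gm18666 on chromosome 1 and Amd2 on chromosome 10, and KO 73 was low for Gm7993 on chromosome 5. For Gm9855 on chromosome 10 and Gm13092 on chromosome 4, all 5 DUSP6 KO spleens had shares over 10 times the mean WT share. KO 21 and KO 73 were at opposite ends for dividing-cell genes (summed level of 5 markers 80.2 and 431 FPKM, against 123 to 266 in the other DUSP6 KO spleens and 69.0 to 322 in WT). The same held for erythroid genes (5 markers, 10339 and 51903 FPKM, against 15197 to 36061 in the other DUSP6 KO spleens and 11940 to 25616 in WT). No member of either marker list was called between the groups (0.0704% of all genes tested were called), and the part of these cells in the copy levels was not tested. In whole spleen, fewer cells of a type and less RNA per cell cannot be told apart.

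Across the 10 spleens, with each group centred on its own mean, the parents Snrpf, Odc1 and Amd1 varied together (Pearson r = 0.97 for Snrpf with Odc1, 0.96 for Snrpf with Amd1 and 0.96 for Odc1 with Amd1). D2hgdh went against them (r = -0.80 with Snrpf, -0.79 with Odc1 and -0.79 with Amd1). Between copy and parent the values were r = 0.41 for Tdg and Gm9855, 0.52 for Snrpf and Gm13092, 0.71 for Amd1 and Amd2, -0.42 for Odc1 and Gm7993 and -0.67 for D2hgdh and Gm18666. For Odc1 and Gm7993, KO 73 had the highest Odc1 and the lowest Gm7993 of its group (253 and 3.50 FPKM). In KO 21, 03, 26 and 01, Gm7993 rose with Odc1 (26.1, 33.1, 48.4 and 51.2 beside 57.7, 79.1, 117 and 144 FPKM). For D2hgdh and Gm18666, KO 21 had the highest D2hgdh and the lowest Gm18666 of its group, and Gm18666 in WT rested on 0 to 4 reads. All these r values share the same 10 libraries and their mixture of cells, and are given as a description.

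By the same measure, among the 13421 other genes averaging 1 FPKM or more, those most like Odc1 were Tacc3 (r = 0.998), Tpcn1 (0.997) and Hmgb2 (0.997). Those most like Snrpf were Noct (0.996), Hmgb3 (0.990) and Cks1b (0.987), and those most like Amd1 were Hyal2 (0.992), Orc2 (0.989) and Mapre1 (0.984). For Tdg they were Tjap1 (0.955), Mettl6 (0.947) and Babam1 (0.938), and for D2hgdh F730043M19Rik (0.993), Ift172 (0.977) and Prex1 (0.967). The copies had other nearest genes than their parents. Snrpf, Odc1 and Amd1, which varied together, also shared none of theirs, so this is not read as a trait of the copies. For the copies, the nearest genes were Brap (0.895), Gm8566 (0.869) and Mtif2 (0.865) for Gm9855, and Cdk7 (0.870), Strn4 (0.859) and Gm12960 (0.857) for Gm13092. For Gm7993 they were Dvl1 (0.942), Mir692-2 (0.930) and Prpsap1 (0.902), for Amd2 Polr2m (0.966), Cyp4b1-ps2 (0.944) and Farsa (0.937), and for Gm18666, among 13422 genes, Arpp19 (0.962), Brix1 (0.937) and Nit2 (0.934).

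Other genes of the parents' pathways were not part of the choice of the 10 genes and were tested with limma, with p-values adjusted over all 21296 genes. Of all these genes 0.0704% were called and 5.66% had an unadjusted p under 0.05. Counts of 0 calls in lists this short are therefore not read as a result about the pathways. The splits into higher and lower genes were not tested. None of the 25 other base excision repair and demethylation genes tested beside Tdg was called in either direction (15 higher, 10 lower, median log2 difference 0.05 against 0.00 over all genes), and none had an unadjusted p under 0.05. Mbd4, a glycosylase that acts on the same G·T mismatches, measured 4.63 ± 0.63 FPKM in DUSP6 KO and 4.36 ± 0.36 in WT (adjusted p = 0.993). Smug1, a uracil DNA glycosylase, measured 1.93 ± 0.45 and 2.08 ± 0.53 FPKM (adjusted p = 0.993). The lowest p among the genes that were higher in DUSP6 KO belonged to Lig3, a DNA ligase (3.43 ± 0.47 against 3.10 ± 0.39 FPKM, adjusted p = 0.978).

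None of the 26 Sm, LSm and assembly genes tested was called (16 higher, 10 lower, median 0.02), and 1 had an unadjusted p under 0.05. That gene was Gemin7, part of the SMN complex that loads the Sm ring, at 23.4 ± 1.4 FPKM in DUSP6 KO and 26.5 ± 1.4 in WT (log2 difference -0.18, adjusted p = 0.767). SmF sits next to SmE in the ring, and Snrpe, which encodes SmE, measured 45.1 ± 8.2 and 37.3 ± 10.3 FPKM (adjusted p = 0.959). Snrpg, which encodes SmG, measured 43.3 ± 9.4 and 39.9 ± 4.1 FPKM (adjusted p = 0.993). Gemin8 had the lowest p among the genes that were higher in DUSP6 KO (3.01 ± 0.47 against 2.44 ± 0.44 FPKM, adjusted p = 0.942).

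None of the 23 polyamine genes tested was called (19 higher, 4 lower, median 0.07), and none had an unadjusted p under 0.05. Oaz1, the antizyme that sends ornithine decarboxylase to the proteasome, measured 231 ± 53 FPKM in DUSP6 KO and 201 ± 17 in WT (adjusted p = 0.978). Azin1, the antizyme inhibitor, measured 32.3 ± 14.9 and 29.2 ± 9.5 FPKM (adjusted p = 0.993). The synthases that use the product of Amd1 were also within the spread, Srm, which makes spermidine, at 39.4 ± 6.7 and 35.5 ± 3.6 FPKM (adjusted p = 0.978) and Sms, which makes spermine, at 7.24 ± 0.53 and 7.30 ± 0.76 FPKM (adjusted p = 0.998). Dohh, which completes hypusine on eIF5A, had the lowest p among the higher genes (5.45 ± 0.86 against 4.58 ± 0.39 FPKM, adjusted p = 0.922), and Mat2b, a subunit of the enzyme that makes S-adenosylmethionine, that among the lower (17.1 ± 1.0 against 17.6 ± 1.5 FPKM, adjusted p = 0.993).

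None of the 16 genes of 2-hydroxyglutarate metabolism and the citric acid cycle was called (11 higher, 5 lower, median 0.04), and none had an unadjusted p under 0.05. Idh1, a cytosolic isocitrate dehydrogenase, measured 20.1 ± 4.0 FPKM in DUSP6 KO and 23.0 ± 0.5 in WT (adjusted p = 0.944), and Idh2, its mitochondrial counterpart, 24.4 ± 0.5 and 22.7 ± 1.6 FPKM (adjusted p = 0.953).

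A search of the annotated transcripts found 29 further copies of the 5 parents in the table, 17 of Odc1, 6 of Amd1, 3 of Snrpf, 2 of Tdg and 1 of D2hgdh. Of these, 10 were at 0 in all 10 spleens and 8 passed the filter on low values. None of the 8 was called, and none had an unadjusted p under 0.05. Their log2 differences ran from -0.28 to 0.96 (6 higher, 2 lower, median 0.29 against 0.00 over all genes), and this split was not tested. Of all genes tested 0.0704% were called, so the count of 0 calls is not read as a result about the copies. For Tdg, Gm5597 was as similar to its parent as Gm9855 (99.3% over 1193 bases) yet measured 0.042 ± 0.048 FPKM in DUSP6 KO and 0.141 ± 0.086 in WT, from at most 5 reads in a library. Tdg-ps, which matched Tdg at 98.7%, had at most 5 reads in any library, and Gm33178, the only other Snrpf copy above 0, had at most 1.

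Gm7889, on chromosome 1 like D2hgdh and 99.1% identical to it over 567 bases, had at most 6 reads in a DUSP6 KO spleen and at most 1 in a WT spleen and did not pass the filter. Of the Odc1 copies, Gm9115 was the highest (3.13 ± 2.06 FPKM in DUSP6 KO and 2.63 ± 1.18 in WT, adjusted p = 0.993), followed by Gm17709 (1.55 ± 0.70 and 1.04 ± 0.40 FPKM, adjusted p = 0.967) and Rps7-ps2 (0.177 ± 0.138 and 0.223 ± 0.217 FPKM, adjusted p = 0.995). Of the Amd1 copies, Amd-ps3 measured 1.21 ± 0.42 and 0.891 ± 0.231 FPKM (adjusted p = 0.962) and Amd-ps4 0.611 ± 0.271 and 0.384 ± 0.101 FPKM (adjusted p = 0.944). Amd-ps3 matched Amd1 at 99.9% over 1005 bases, and its groups overlapped. Amd-ps1 had at most 3 reads in a library.

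**Figure D5:**
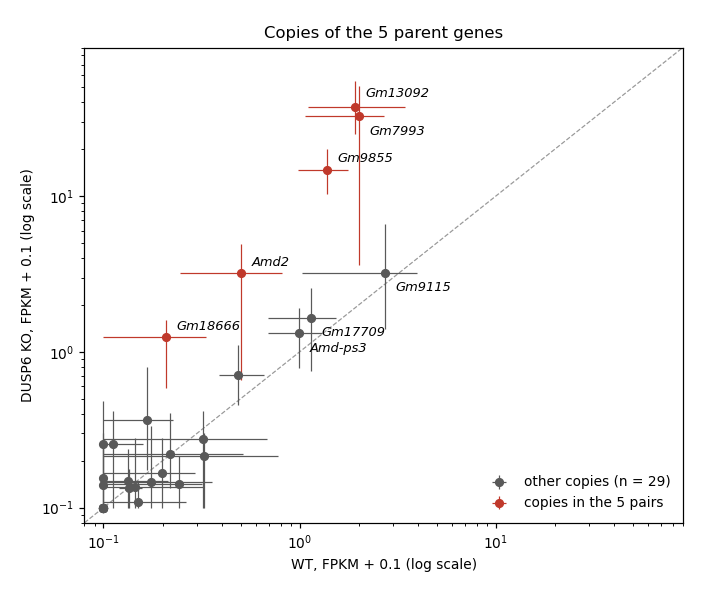
Mean level in WT (horizontal) and DUSP6 KO spleens (vertical) of the 5 copies in the pairs (red) and of the 29 other copies of the same parents (grey), as FPKM + 0.1 on log axes, with lines from the lowest to the highest of 5 spleens. The dashed line marks equal levels, and Gm9115, the highest grey point, had 3.13 and 2.63 FPKM.

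Of 5 genes that overlap a member, 3 were tested and none was called, where 0.0704% of all genes tested were called. Rere, whose span contains Gm13092, measured 21.1 ± 3.1 FPKM in DUSP6 KO and 22.3 ± 2.7 in WT (adjusted p = 0.993). Ccdc38, which overlaps Snrpf on the other strand, measured 0.179 ± 0.083 and 0.238 ± 0.053 FPKM (adjusted p = 0.978). Gm22748, a small nucleolar RNA within Odc1, had at most 7 reads in a DUSP6 KO spleen and at most 9 in a WT spleen (adjusted p = 0.986). Glt8d2, which overlaps Tdg on the other strand, and 4933408J17Rik, which overlaps Snrpf, were below the filter at means of 0.098 and 0.037 FPKM. Whether the counting used strand is not given in the sources used here, so reads of overlapping genes on opposite strands may not be told apart.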

How the data were processed

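RNA was measured by poly-A RNA-seq in 10 spleens, 5 DUSP6 KO and 5 WT. The authors' provider aligned paired reads with Hisat2 v2.0.5 and counted them per gene with featureCounts 1.5.0-p3, and the deposited values are FPKM per gene with the gene length. The submitters' processing notes name hg38, a human build. The gene coordinates were instead the same as those of GENCODE M21 (GRCm38) for 98.3% of the 54409 genes found in both. This held for all 10 members. Strand setting and handling of multiply mapping reads are not given in the sources used here. No column of fold changes or p-values was used.

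FPKM times gene length came out as whole multiples of 1 read for 100% of values, which gave each library's reads. P-values measure the spread between spleens of separate mice. For each library pair of 1 group, counts differed by far more than sampling noise (chi-square per gene 14.7 to 169 over 20 pairs), so no library was counted as a duplicate.

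Groups were compared with limma 3.58.1 (R 4.3.3, trended moderated test, two-sided, no covariates) on log2(FPKM + 0.1) for genes averaging 0.1 FPKM or more, and p-values were adjusted over all tested genes by the Benjamini-Hochberg method. The fit was run on simulated counts with 200 changed genes and a dispersion of 0.05 for every gene. This simulation does not copy the differing spread of genes or the cell mixture of these spleens. A fold change on this scale understates that of low genes. For the pairs, RPM (FPKM times gene length in kilobases), their sums and the copy share were computed per spleen. Transcripts were compared with blastn 2.17.0 (other copies: at least 90% identity over 200 bases, 150 for Snrpf). The members and lists were chosen with earlier results of these data known. Named beside the members were direct partners, the lowest p in each direction of each list, up to 3 other copies per parent by mean FPKM, overlapping genes, and the 3 genes most alike each member. Symbols standing for several rows were left out of marker sums. Some genes that this rule names are not reported here. Protein sequences were not used here.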

Additional observations from a re-analysis of the deposited data

Results flagged for a closer look

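In 101 groups of 5 spleens examined, 7 held a spleen whose gap to its nearest neighbour was over 0.71 of the range of the group, and chance alone flags about 1 in 20 groups. Among the pairs, the share of reads on Gm7993 was 0.560% in KO 73, with the next lowest DUSP6 KO spleen at 12.6%. The share on Gm13092 was 25.7% in KO 26, against 29.2% in the next spleen, within a group that otherwise varied little. Among other named genes, Amd-ps4 was highest in WT 83 (0.556 FPKM, next 0.366). 4933408J17Rik was highest in WT 65 (0.315 FPKM, next 0.060). The rest were single reads or close to it beside spleens at 0: Gm33178 in KO 01 (0.180 FPKM) and in WT 73 (0.226 FPKM), and Gm7889 in WT 83 (0.058 FPKM).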

How the results depend on the processing

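Of 442 values under other settings, 14 changed sign and 15 moved by more than the spread between spleens or, for counts of calls, by over 1.5 times; the other 413, which include list counts of 0, stayed within these bounds. Member log2 differences that moved did so with the pseudocount. With 1 they were -1.70 for Tdg, 2.76 for Gm9855, 3.77 for Gm13092, 0.93 for Gm18666 and 1.43 for Amd2, and with 0.01 Gm18666 was at 3.77. Adding FPKM without gene length, which weights a short copy more, moved the pair sum of Tdg to 0.85, of Snrpf to 0.60 and of D2hgdh to -0.35, and the copy share differences to 75.3 (Gm9855), 52.8 (Gm13092), 32.1 (Gm18666) and 21.8 (Gm7993) percentage points. Leaving out 1 spleen at a time gave -0.34 to 0.19 for Odc1 (0.19 without KO 21, 0.08 without KO 03, 0.17 without WT 77) and -0.15 to 0.10 for Amd1 (0.08, 0.06 and 0.10 without the same spleens). For pair sums it gave -0.23 to 0.05 for Snrpf (0.049 without KO 21, 0.036 without WT 77), -0.13 to 0.35 for Odc1 (-0.13 without KO 73, -0.10 without WT 67) and -0.04 to 0.20 for Amd1 (-0.043 without KO 73, -0.018 without WT 67). These 5 values had no stable direction. Scaling by the total of recovered reads, added after seeing the data, changed no pair sum's direction.

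Genes called were 8 higher and 7 lower. Without 1 spleen they were 6 to 21 higher and 4 to 13 lower (21 and 13 without KO 21, 4 lower without WT 83), and a mean of at least 1 FPKM left 4 lower. The cause was not tested. All 4 pathway lists and the other copies had 0 calls under every setting run, limma voom on recovered reads included. No paired analysis was possible because the groups share just 1 animal number, 73, and the labels do not tie animals. Copies with under 30 reads per library, such as Gm18666, are limited by depth.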
